A study of Mus musculus with 6 samples.

Results

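The 10 genes examined here encode the core machinery of mitochondrial fatty acid beta-oxidation: Cpt1a, Slc25a20, Cpt2, Acadvl, Acadl, Acadm, Hadha, Hadhb, Hadh and Acaa2. They were chosen by gene symbol for their place in the pathway. All 10 were found among the 48967 genes in the deposited counts, and all 10 were among the 16020 genes that passed the filter on low counts. In this pathway, long-chain fatty acids cross the mitochondrial membranes as carnitine esters and are then shortened in repeated rounds of oxidation, hydration, a further oxidation and cleavage. Each round releases acetyl-CoA for the tricarboxylic acid cycle and passes electrons to the respiratory chain. Oocytes and cleavage-stage embryos keep fatty acids in lipid droplets, and these stores are one of the substrates that the pathway can burn.

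RNA was sequenced from mouse 2-cell embryos of the strain F1 (C57Bl/10 X CBA/H), genotype wt, that developed either from control zygotes or from delipidated zygotes, with 3 libraries in each group and 3 embryos pooled in each library. Both groups were cultured in fatty acid-free KSOM from 0.5 to 2.0 dpc, the end point being labelled day 2. Delipidated zygotes had been centrifuged in cytochalasin B, and their lipid droplets were aspirated through an opening made in the zona pellucida with a laser; the sources do not say whether the sequenced controls also went through cytochalasin B and centrifugation. Zygotes of hormonally stimulated females were pooled before allocation to the groups, so the p-values measure the spread between pools of embryos and not between females.

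The authors deposited raw counts for exonic parts, which are non-overlapping pieces of the exons of a gene, and the parts of each gene were added up. Counts assigned to genes came to 12164963, 16165958 and 12980787 in control replicates 1, 2 and 3, and to 20059460, 16332103 and 14683741 in delipidated replicates 1, 2 and 3. A read is counted in every part that it touches, so a read can add more than 1 count to a gene. Levels are given as CPM, the counts per 1000000 counts of the tested genes, after TMM normalization, a scaling that evens out differences in composition between libraries. At least 1 count was found for 22855, 22437 and 20582 genes in the control libraries and for 17091, 19408 and 20158 genes in the delipidated libraries, and these ranges did not overlap.

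The markers of the 2-cell embryo included 4 genes switched on at that stage (Zscan4c, Zscan4d, Tcstv3 and Usp17lc) and 7 maternal genes, which the oocyte also contains; this split was made after the data were seen. All 11 had counts in all 6 libraries. The 4 genes summed to 210, 64.6 and 189 CPM in control and 150, 139 and 207 CPM in delipidated replicates 1, 2 and 3, and each of the 4 was lowest in control replicate 2. Leaving out the same library changed the sign of the log2 fold changes of Slc25a20, Acadm, Acadvl and Hadha, and moved that of Cpt1c from -1.12 to -0.55; whether this library differed in stage or handling was not tested. Over the 11 genes the summed level was 2031, 1388 and 1780 CPM in control and 1780, 1580 and 2284 CPM in delipidated embryos. The most abundant was Dppa3, a maternal factor that protects DNA methylation in the zygote, at a mean of 1039 CPM.

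The comparison asked whether the removal of lipid stores at the zygote stage was followed by a different level of beta-oxidation transcripts at the 2-cell stage. None of the members passed the threshold. edgeR's quasi-likelihood test called 0 of 10 members higher and 0 of 10 lower at a Benjamini-Hochberg adjusted p under 0.05 and a log2 fold change beyond 1, against 0% of the 16020 tested genes higher and 0% lower. An unadjusted p under 0.05 was likewise found for 0 of 10 members, against 1.15% of all tested genes higher and 1.74% lower in delipidated embryos. DESeq2's Wald test with no filter beforehand also called 0 members, against 0.0291% of 30967 genes higher and 0.129% lower. Its default filtering of adjusted p-values was left on, so not all of the 30967 genes may have been open to a call. With limma-voom 0 members were called as well, against 0% of 16020 genes higher and 0% lower. The unadjusted p-values of the members from edgeR lay between 0.371 and 0.964, and every adjusted p was 1.00. In 0 of 10 members were the groups fully separated, which was the case with the delipidated libraries higher in 3.81% and lower in 5.05% of the tested genes.

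Added together, the 10 members had a level of 117, 166 and 148 CPM in control replicates 1, 2 and 3. The sum was 150, 138 and 101 CPM in delipidated replicates 1, 2 and 3. The highest and the lowest delipidated libraries thus fell within and below the control range, and the groups overlapped. The means were 144 ± 24.7 CPM (SD, n = 3) in control and 129 ± 25.6 CPM (SD, n = 3) in delipidated embryos, a log2 ratio of -0.15, which is less than the spread between libraries. Single fold changes were positive for 2 members and negative for 8. Their median was -0.25 on the log2 scale, beside -0.00073 over all tested genes, of which 8004 were positive and 8016 negative. These signs were not firm: 8 of the 10 members changed sign when 1 of the 6 libraries was left out, whereas scaling with DESeq2's size factors changed none. Each library pooled 3 embryos and CPM is a share of the library, so these levels do not measure RNA per embryo or per cell. Which cells of a pool contributed the RNA cannot be told from them.

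**Figure D1:**
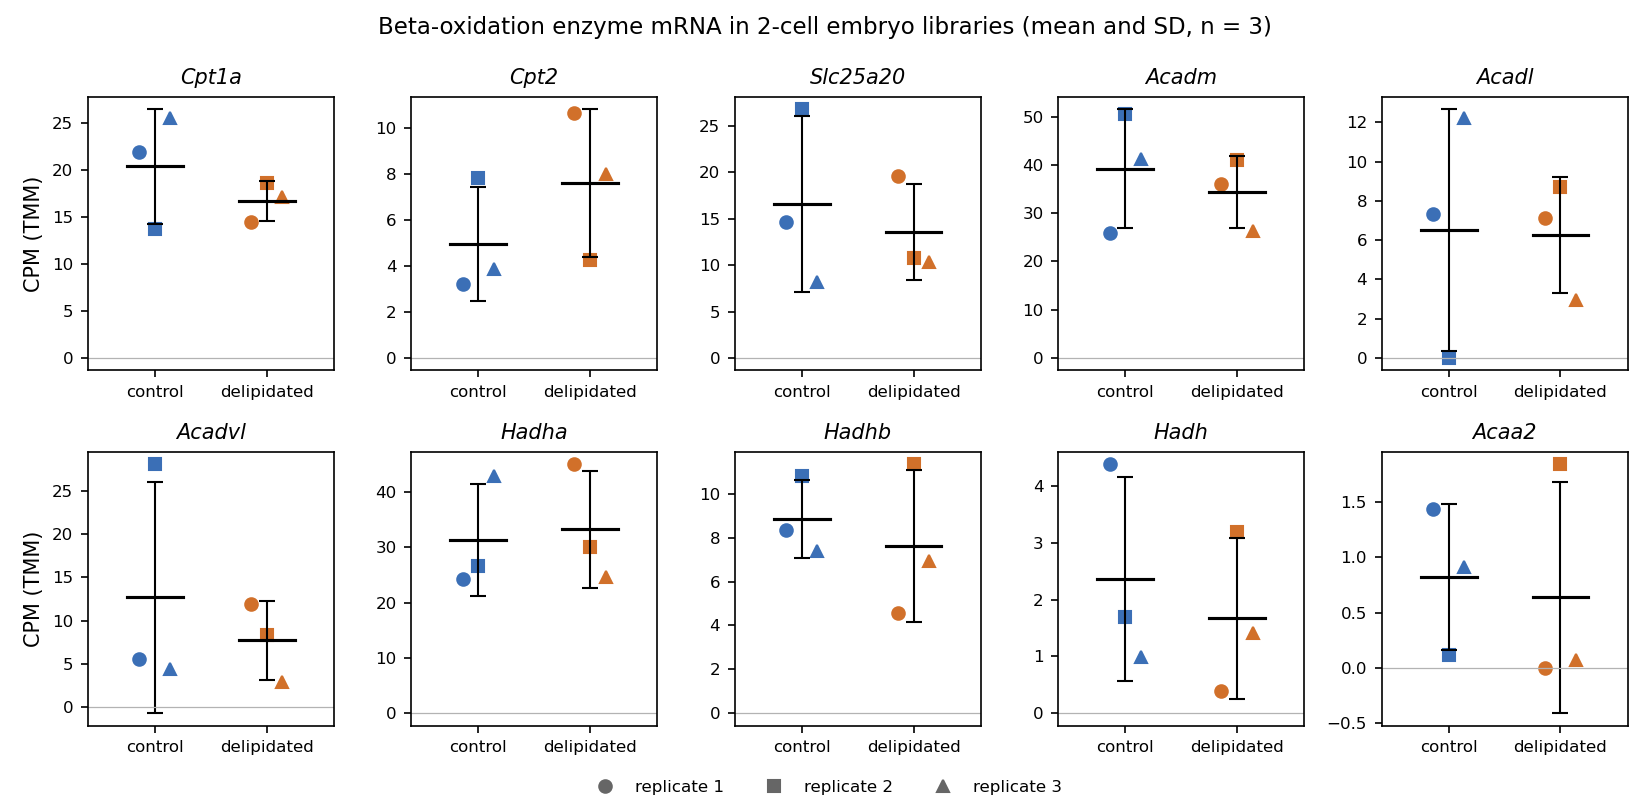
Level of each of the 10 genes in CPM after TMM normalization (y axis, a separate linear scale for each gene) in the 3 control and the 3 delipidated libraries. Each symbol is a library, horizontal bars are group means and error bars the SD (n = 3). The groups overlap in every panel, and Acadl has no counts in control replicate 2.

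Entry into mitochondria depends on the carnitine shuttle. Cpt1a encodes carnitine palmitoyltransferase 1A of the outer membrane, which transfers long-chain acyl groups to carnitine and is the main point of control of the pathway. The gene (ENSMUSG00000024900) lies on the forward strand of GRCm38, chr19:3323301-3385732, with 19 exonic parts. Its counts were 260, 226 and 336 in control and 292, 303 and 243 in delipidated replicates 1, 2 and 3. After normalization this gave 21.9, 13.7 and 25.5 CPM in control and 14.4, 18.6 and 17.2 CPM in delipidated libraries. The delipidated libraries all lay inside the range of the control libraries. Mean levels were 20.4 ± 6.09 and 16.7 ± 2.13 CPM (SD, n = 3), and the log2 fold change was -0.28 (standard error, SE, 0.41) with a 95% interval from -1.18 to 0.61 (edgeR, adjusted p = 1.00). With each library left out in turn it lay between -0.50 and -0.092.

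Slc25a20 encodes the carnitine-acylcarnitine translocase, which carries the acyl group across the inner membrane in exchange for free carnitine. This gene (ENSMUSG00000032602, forward strand, chr9:108662088-108684641, 13 parts) had 174, 443 and 108 counts in control and 396, 175 and 147 in delipidated replicates 1, 2 and 3, or 14.7, 26.8 and 8.21 against 19.6, 10.8 and 10.4 CPM. Control libraries held both the highest and the lowest of the 6 values. The log2 fold change of -0.29 (SE 0.53, 95% interval from -1.44 to 0.86) rested on control replicate 2 and was 0.25 without it.

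Cpt2 encodes the carnitine palmitoyltransferase of the inner membrane, which hands the acyl group back to coenzyme A in the matrix. It was the member with the largest positive fold change. On the reverse strand at chr4:107903981-107923610 (ENSMUSG00000028607, 16 parts), it had 38, 129 and 51 counts in control and 215, 69 and 113 counts in delipidated replicates 1, 2 and 3. These counts correspond to 3.21, 7.80 and 3.88 CPM in control and to 10.6, 4.24 and 7.98 CPM in delipidated embryos. Of the delipidated libraries, replicates 1 and 3 were above all controls, whereas replicate 2 lay inside the control range. The means of 4.96 ± 2.48 and 7.61 ± 3.20 CPM (SD, n = 3) gave a log2 fold change of 0.61 and an SE of 0.66 (edgeR, unadjusted p = 0.371, the lowest of the members). It was 0.30 without delipidated replicate 1 and 1.10 without control replicate 2. A single part held 58.1% of the counts in delipidated replicate 1 and 76.3% in control replicate 1.

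**Figure D2:**
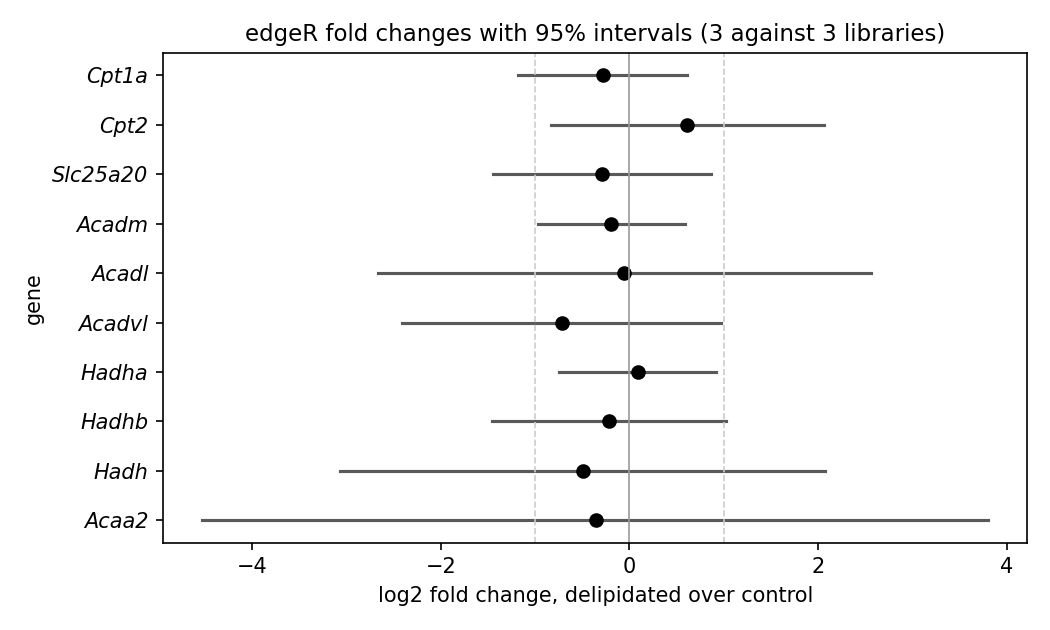
Log2 fold change of each gene, delipidated over control (x axis), as fitted by edgeR over 3 against 3 libraries. Points are estimates and horizontal lines 95% intervals; dashed lines mark log2 fold changes of -1 and 1. All 10 intervals include 0, and those of Acadm and Hadha lie wholly between the dashed lines.

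The first oxidation of each round is carried out by acyl-CoA dehydrogenases that differ in the chain length they prefer. Acadm, the medium-chain enzyme, had the highest mean of the members in CPM, 36.8 against 32.3 for Hadha, although Hadha was above it in control replicate 3 and delipidated replicate 1. The gene (ENSMUSG00000062908) is on the reverse strand at chr3:153922357-153944632 with 33 parts. It had 308, 834 and 543 counts in control and 729, 666 and 372 counts in delipidated replicates 1, 2 and 3. The normalized values were 26.0, 50.4 and 41.3 CPM in control and 36.0, 40.9 and 26.3 CPM in delipidated libraries. As with Cpt1a, the delipidated libraries all lay inside the control range. Means of 39.2 ± 12.3 and 34.4 ± 7.46 CPM (SD, n = 3) gave a log2 fold change of -0.19 (SE 0.36). Its 95% interval, from -0.97 to 0.59, was the narrowest of the 10 and stayed below a log2 fold change of 1 in both directions. Leaving out control replicate 2 turned the estimate to 0.034.

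Acadl, the long-chain enzyme, was unevenly sampled. Located on the reverse strand at chr1:66830839-66863277 (ENSMUSG00000026003, 13 parts), it had 87, 0 and 161 counts in control and 144, 142 and 42 counts in delipidated replicates 1, 2 and 3. Control replicate 2 had no count on any of the 13 parts, although its library was the deepest of the controls. If each read added 1 count, a count of 0 would allow up to 3 counts, or 0.181 CPM, by counting error alone. The limit is higher where a read is counted on several parts. The other libraries lay between 2.97 and 12.2 CPM. In delipidated replicate 2, 3 neighbouring parts carried 23 counts each, and in control replicate 1 the same 3 parts carried 18 each; a read that spans several parts is counted in each of them. Group means were 6.53 ± 6.16 and 6.27 ± 2.97 CPM (SD, n = 3). Fitted by edgeR, the log2 fold change was -0.05 (SE 1.19), and it was -0.64 without control replicate 2 and 2.55 with limma-voom. The spread between libraries was too wide to resolve a difference in Acadl.

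Acadvl, the very-long-chain enzyme bound to the inner membrane, had the lowest fold change of the members, but its counts cannot be attributed to it alone. Of its 36 parts (ENSMUSG00000018574, reverse strand, chr11:70010183-70015411), 17 overlap exonic parts on the opposite strand. Those are listed under the joined name of Dvl2 and Mir324, and which of the genes overlaps each part was not resolved. The 17 parts held 61.3% of the Acadvl counts. Whether the counts on these parts came from Acadvl or from the opposite strand was not tested. Its counts were 66, 464 and 58 in control and 241, 136 and 41 in delipidated replicates 1, 2 and 3, which is 5.57, 28.1 and 4.41 CPM against 11.9, 8.36 and 2.89 CPM. Control replicate 2 stood far above the other 5 libraries, and the remaining controls lay among the delipidated values. The log2 fold change of -0.72 (SE 0.77, 95% interval from -2.41 to 0.98) became 0.63 without control replicate 2 and 0.78 without the parts that overlap on the opposite strand.

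The next steps are catalysed by the mitochondrial trifunctional protein, a complex of alpha subunits encoded by Hadha and beta subunits encoded by Hadhb. The alpha subunit carries the hydratase and long-chain hydroxyacyl-CoA dehydrogenase activities and the beta subunit the thiolase. Hadha (ENSMUSG00000025745, reverse strand, chr5:30118304-30155162, 40 parts) had 287, 441 and 565 counts in control and 913, 489 and 349 counts in delipidated replicates 1, 2 and 3. Scaled to CPM, these were 24.2, 26.7 and 43.0 in control and 45.1, 30.0 and 24.6 in delipidated embryos. A library of each group reached above 40 CPM and the other 4 lay between 24.2 and 30.0 CPM. Its means were 31.3 ± 10.2 and 33.3 ± 10.6 CPM (SD, n = 3), and the log2 fold change was 0.09 (SE 0.38, 95% interval from -0.74 to 0.92). The estimate turned to -0.19 without delipidated replicate 1.

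Hadhb (ENSMUSG00000059447, forward strand, chr5:30155248-30184593, 34 parts) had 99, 179 and 97 counts in control and 92, 185 and 98 counts in delipidated replicates 1, 2 and 3. In CPM the control libraries were at 8.35, 10.8 and 7.37 and the delipidated libraries at 4.54, 11.4 and 6.92. The control values lay inside the delipidated range. This gave a log2 fold change of -0.22 (SE 0.57, 95% interval from -1.46 to 1.02). Only 4 of the 34 parts had counts in delipidated replicate 1, with 23 counts on each of them, whereas 14 and 16 parts had counts in delipidated replicates 2 and 3. Without delipidated replicate 1 the log2 fold change was 0.047.

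The 2 subunit genes are neighbours that are transcribed away from each other, and their products are assembled into a single complex. Per kilobase of exonic length, Hadha exceeded Hadhb in each of the 6 libraries, by a ratio of 2.19, 1.86 and 4.40 in control and 7.50, 2.00 and 2.69 in delipidated replicates 1, 2 and 3. The ratio was lowest in control replicate 2 and highest in delipidated replicate 1, the library in which Hadhb counts fell on 4 parts. Between the outermost exonic parts of both genes lie 85 bases, chr5:30155163-30155247. They are shown because this stretch is shared by the upstream regions of both genes. The outermost part of Hadha, chr5:30154991-30155162, had no counts in any library, and the RefSeq start of Hadha is at chr5:30154980. A link between the stretch and the ratio was not tested. The sequence is from RefSeq (GRCm38.p6) and is given on the forward strand, with the GC-box motif GGGCGG in capitals.
Hadha to Hadhb: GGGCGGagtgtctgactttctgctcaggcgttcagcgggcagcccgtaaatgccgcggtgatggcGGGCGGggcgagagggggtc
The stretch holds 2 GC boxes and 69.4% G or C. Promoters of 300 bases, from 250 before to 50 after the annotated start, were available for 9 of the 10 members, the exception being Acaa2. Searched on both strands, GGGCGG was found in 7 of these 9 promoters and in 35.7% of all 32851 promoters. The windows of Hadha (chr5:30154931-30155230) and Hadhb (chr5:30155003-30155302) overlap, and the GC box of Hadha lies in both. These 7 promoters are thus not all separate. The core motif of nuclear receptor sites, AGGTCA, was found in 3 of the 9, those of Cpt1a, Acadm and Acadvl, and in 16.3% of all promoters. Its direct repeat with a spacing of 1 base, AGGTCANAGGTCA, which contains the core motif and is the type of element bound by PPAR alpha, was in 0 of the 9 and in 0.040% of all promoters. These counts describe letters in a window and not bound sites.

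**Figure D3:**
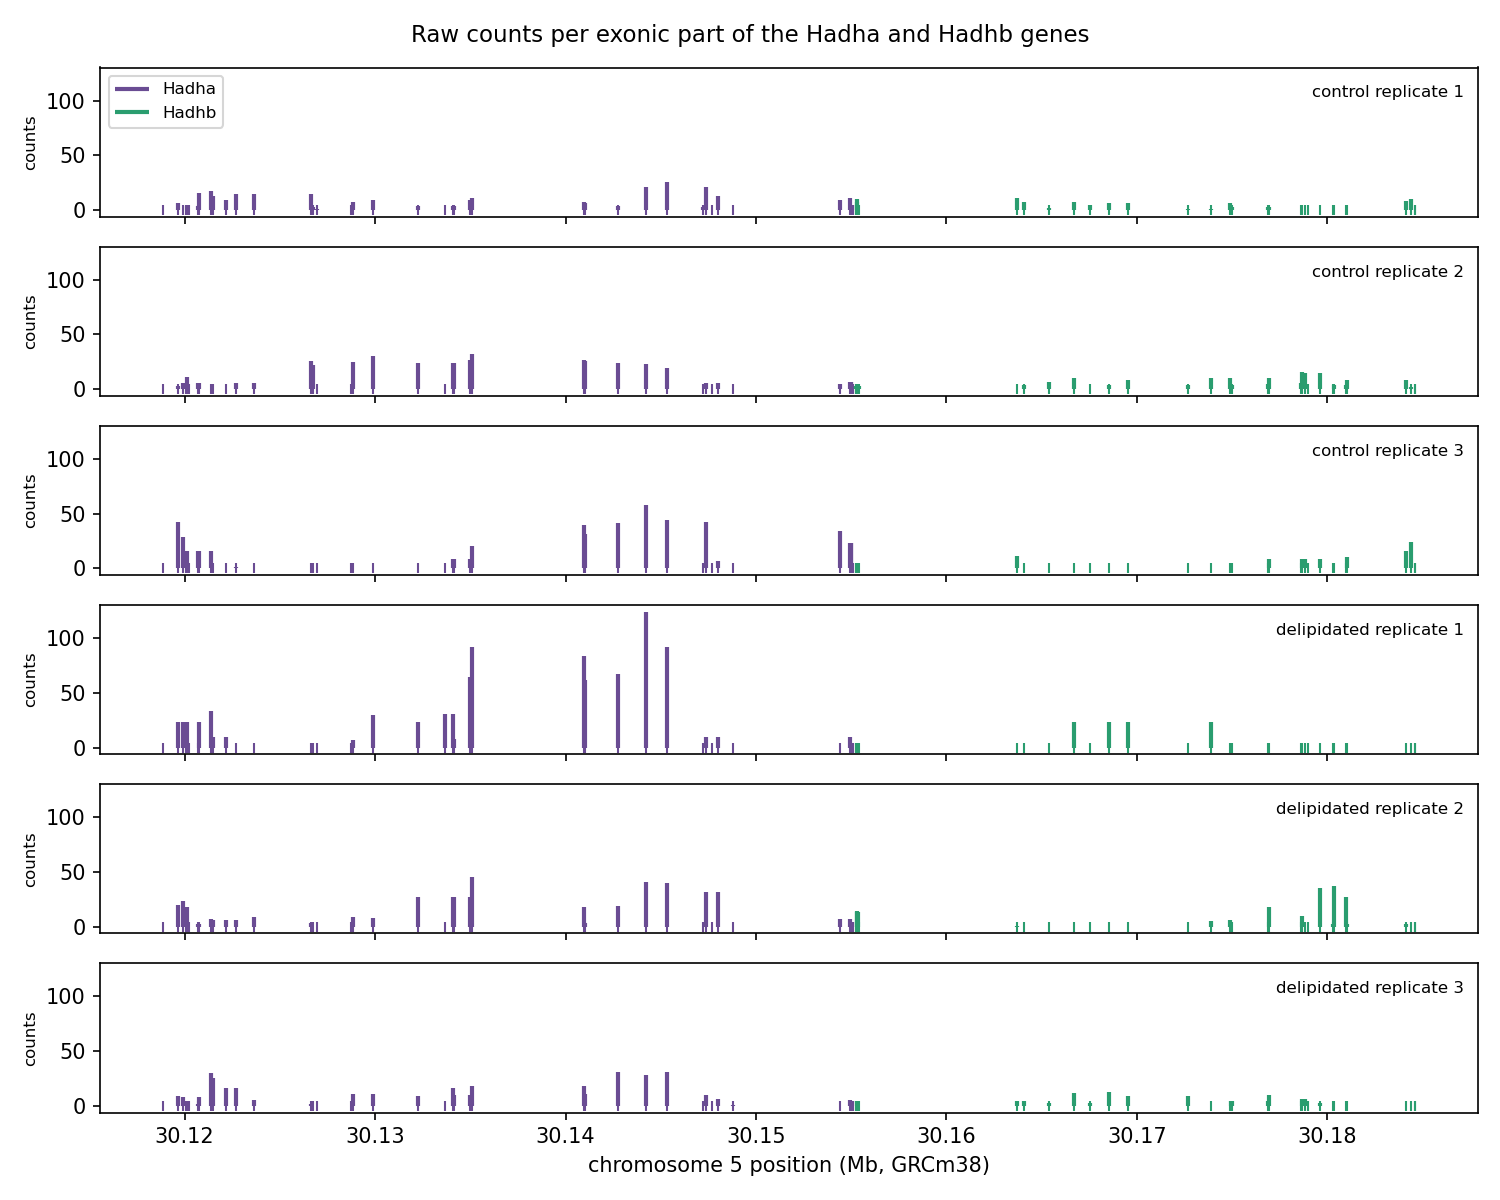
Raw counts per exonic part (y axis, linear) of Hadha and Hadhb along chromosome 5 (x axis, Mb, GRCm38), with a panel for each of the 6 libraries. Vertical bars are the counts of a part placed at its midpoint, and ticks at 0 mark all parts. In delipidated replicate 1 the Hadhb counts sit on 4 parts with 23 counts each, while Hadha reaches 124 counts on a single part.

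Hadh and Acaa2 complete the round for shorter chains and had the lowest levels of the 10 genes in CPM and per kilobase of summed exonic length. Hadh encodes the hydroxyacyl-CoA dehydrogenase of the matrix, which performs the further oxidation. It lies on the reverse strand at chr3:131233419-131272101 (ENSMUSG00000027984, 11 parts) and had 52, 28 and 13 counts in control and 8, 52 and 20 counts in delipidated replicates 1, 2 and 3. This corresponded to 4.39, 1.69 and 0.988 CPM in control and 0.395, 3.19 and 1.41 CPM in delipidated libraries. The groups overlapped over most of their range. Hadh had a log2 fold change of -0.50 (SE 1.17, 95% interval from -3.07 to 2.07), which was 0.31 without control replicate 1.

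Acaa2 encodes the mitochondrial 3-ketoacyl-CoA thiolase, which cleaves off acetyl-CoA. Its counts (ENSMUSG00000036880, forward strand, chr18:74779197-74806207, 10 parts) were 17, 2 and 12 in control and 0, 30 and 1 in delipidated replicates 1, 2 and 3. The levels were 1.43, 0.121 and 0.912 CPM in control and 0, 1.84 and 0.071 CPM in delipidated libraries. The 0 allows up to 0.148 CPM if each read adds 1 count, and more where a read is counted on several parts. Counts near 0 occurred in both groups. The 30 counts of delipidated replicate 2 were 10 counts on each of 3 neighbouring parts. With a log2 fold change of -0.36 (SE 1.90), a difference between the groups was not detectable with this spread between libraries. The estimate was -1.77 with limma-voom, -2.71 with the replicate block and -4.34 without delipidated replicate 2, and it was positive, at 0.31, without control replicate 1.

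Levels of different genes were compared per kilobase of summed exonic length, as the mean and SD over all 6 libraries. Acadm was highest with 9.41 ± 2.43 CPM per kb (SD, n = 6), above 70.0% of all tested genes on the same scale. Cpt1a followed with 4.32 ± 1.06, Acadvl with 3.80 ± 3.47, Hadha with 3.70 ± 1.07, Acadl with 3.19 ± 2.16, Slc25a20 with 3.11 ± 1.45 and Cpt2 with 2.63 ± 1.23 CPM per kb. The place of Acadvl rested on control replicate 2, at 10.4 CPM per kb, and without that library, an alternative chosen after the data were seen, its mean was 2.47 CPM per kb and its rank 7; parts shared with the opposite strand held 61.3% of its counts. The 6 genes from Cpt1a to Cpt2 lay near the middle of the tested genes, above 54.6% of them for Cpt1a and above 44.2% for Cpt2. Hadhb was at 1.25 ± 0.387, Acaa2 at 0.482 ± 0.520 and Hadh at 0.404 ± 0.300 CPM per kb, the last above 9.93% of the tested genes. The order was beyond the spread between libraries at 3 places, from Acadm to Cpt1a, from Cpt2 to Hadhb and from Hadhb to Acaa2, and each of these steps had the same direction in 6 of 6 libraries. Other neighbours in the order did not differ beyond their SD. Acadm ranked 1 in every library. With 150 bases, the read length, added to the length of each part, Acadm, Cpt1a, Hadha and Hadhb kept ranks 1, 2, 4 and 8, while Acadvl moved from 3 to 7, Slc25a20 from 6 to 3 and Cpt2 from 7 to 6, and Hadh and Acaa2 exchanged ranks 9 and 10. When the part with most counts and its own length stood for each gene, which changes both the counts and the length used, the order was different. Hadha then ranked 1, Acadm 2, Hadhb 4, Cpt2 6, Hadh 7, Acaa2 8, Cpt1a 9 and Slc25a20 10. On that scale Hadhb was above Cpt2, and Hadh and Acaa2 were not the lowest.

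Taking the sum of the 10 members as 100%, Acadm made up between 22.2% and 30.4% of it in the 6 libraries, and Hadha between 16.1% and 30.1%. Cpt1a contributed between 8.23% and 18.7%, and Acaa2 at most 1.34%. Outside the lists, the genes whose log2 level followed the log2 sum of the members most closely over the 6 libraries were Ncl (r = 0.995), Zfp977 (r = 0.988), Ppp1r15b (r = 0.987), Cebpz (r = 0.986) and Unc45a (r = 0.984), among 8088 genes with a mean of at least 10 CPM. These correlations share libraries and scaling with the sum and are given as a description.

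In other genes of the pathway, edgeR likewise called 0 in each of 7 lists, with DESeq2's Wald test and limma-voom calling 0 of the genes named from these lists. Of the other mitochondrial beta-oxidation enzymes, 14 of 15 were tested. Fold changes were positive for 10 of the 14 and negative for 4, their median log2 value was 0.38, and 3 had an unadjusted p under 0.05, all higher in delipidated embryos, where 1.15% of all tested genes were. Of these 3, Hsd17b10 and Acad12 passed the filter on low counts through the delipidated libraries alone, with 0 control libraries above its minimum of 0.648 CPM, so their p-values and the count of 3 are given as a description. In the other 6 lists 0 genes had an unadjusted p under 0.05 in this edgeR fit. Among the genes named from them, it was under 0.05 for Ech1 in 4 of 14 alternatives, for Cpt1c in 2 of 16 and for Crat and Oxct1 in 1 of 16 each, all lower in delipidated embryos. Those for Ech1 include the fit without delipidated replicate 2, where the delipidated group had 0 counts, so this tally is a description. Acadsb, the dehydrogenase for short branched chains, had 24.3, 36.2 and 21.1 CPM in control and 53.4, 64.0 and 30.6 CPM in delipidated replicates 1, 2 and 3. Control replicate 2 was above delipidated replicate 3, so the groups overlapped. Its log2 fold change was 0.86 (SE 0.38; edgeR, unadjusted p = 0.0426, adjusted p = 1.00), its unadjusted p lay between 0.0104 and 0.620 over 16 alternatives, and the estimate was -0.26 when the part with most counts was taken in place of the sum.

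Hsd17b10, which encodes the hydroxyacyl-CoA dehydrogenase type 2 that acts on short and branched chains and is also a subunit of mitochondrial RNase P, had 2, 0 and 6 counts in control and 63, 60 and 31 counts in delipidated replicates 1, 2 and 3. All delipidated libraries were above all controls. The gene lies on chrX:152001845-152004442 with 11 parts, and in delipidated replicate 1 its 63 counts were 21 on each of 3 neighbouring parts. The highest count of a single part was 1, 0 and 3 in control and 21, 23 and 12 in delipidated libraries. Its log2 fold change was 3.81 (SE 1.51) with a 95% interval from 0.56 to 7.18 (edgeR, unadjusted p = 0.0258, adjusted p = 1.00), and lay between 3.22 and 5.11 with each library left out in turn. Its unadjusted p lay between 0.00249 and 0.0709 over 14 alternatives, and its adjusted p ranged from 0.273, with DESeq2's Wald test, to 1.00. Acad12, an acyl-CoA dehydrogenase family member named after its values were seen, had 3, 2 and 0 counts in control and 15, 33 and 35 counts in delipidated libraries, the 15 on a single part. These groups did not overlap either, and the edgeR fit gave an unadjusted p of 0.0476, which lay between 0.0140 and 0.144 over 14 alternatives and was under 0.05 in 5 of them, and an adjusted p of 1.00. Acad10, likewise named after its values were seen, was the other gene of the list whose groups did not overlap, in the opposite direction. It had 0.928, 0.968 and 3.42 CPM in control and 0.741, 0.307 and 0.706 CPM in delipidated replicates 1, 2 and 3, a log2 fold change of -1.59 (SE 1.36, edgeR, adjusted p = 1.00) that was -0.69 without control replicate 3. Echs1, the short-chain enoyl-CoA hydratase, 36.5% of whose counts lay on an overlap with Paox on the opposite strand, had means of 27.8 ± 1.03 and 26.0 ± 7.98 CPM (SD, n = 3), and Acat1, the acetoacetyl-CoA thiolase, had 137 ± 15.5 in control and 114 ± 32.3 CPM in delipidated embryos (SD, n = 3).

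For the carnitine shuttle and its control, 7 of 8 genes were tested, 3 with a positive and 4 with a negative fold change, and the median log2 fold change was -0.23. Cpt1c, the isoform known from neurons, had 127, 409 and 125 counts in control and 123, 119 and 104 counts in delipidated replicates 1, 2 and 3. In CPM all control libraries, at 10.7, 24.7 and 9.50, were above the delipidated libraries at 6.07, 7.31 and 7.34. Cpt1c had a log2 fold change of -1.12 (SE 0.54, edgeR, unadjusted p = 0.0598, adjusted p = 1.00), which was -0.55 without control replicate 2 and 0.012 with the part with most counts; its unadjusted p lay between 0.0335, with DESeq2's Wald test, and 0.994 over 16 alternatives, and 1.99% of its counts were on opposite-strand overlaps. Cpt1b, the muscle isoform, had between 0 and 27 counts per library. Acaca and Acacb, the acetyl-CoA carboxylases whose product malonyl-CoA inhibits carnitine palmitoyltransferase 1, had means of 39.8 and 36.1 CPM in control and 33.9 and 38.3 CPM in delipidated embryos. Crat, which exchanges short acyl groups with carnitine, had 13.9 ± 4.16 and 10.2 ± 11.5 CPM (SD, n = 3) and a log2 fold change of -0.46, which was -1.93 without delipidated replicate 2 (unadjusted p = 0.0264).

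Electrons from the acyl-CoA dehydrogenases pass through the electron transfer flavoprotein, and all 3 genes of this step were tested. Etfa had means of 21.4 ± 13.1 and 26.7 ± 16.5 CPM, Etfb 1.91 ± 1.08 and 0.823 ± 0.978 CPM, and Etfdh, with 22.1% of its counts on an opposite-strand overlap, 4.63 ± 2.86 and 7.42 ± 4.89 CPM in control and delipidated embryos (SD, n = 3). The groups overlapped in each of the 3. Etfb had 17, 52 and 15 counts in control and 0, 31 and 8 counts in delipidated replicates 1, 2 and 3, and its log2 fold change of -1.21 (SE 1.57) was -0.64 without control replicate 2, -0.62 without delipidated replicate 1, -2.75 without delipidated replicate 2 and -2.83 with limma-voom. For Etfa 0.31 became -0.17 without delipidated replicate 1 and 0.94 without control replicate 2. For Etfdh a log2 fold change of 0.68 became 0.0021 without delipidated replicate 3 and 0.28 without opposite-strand parts.

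Peroxisomes carry out a separate beta-oxidation of very long and branched chains. Of 13 genes in that list 10 were tested, 5 with a positive and 5 with a negative fold change, and the median log2 fold change was 0.10. Hsd17b4 had means of 22.8 and 17.4 CPM, Scp2 of 20.4 and 29.1 CPM and Decr2 of 13.8 and 23.1 CPM in control and delipidated embryos, all with overlapping groups. The level of Decr2 was 39.8 CPM in delipidated replicate 1 against 14.6 and 14.8 CPM in the others, and its log2 fold change of 0.74 was 0.089 without that library. Ech1 had 40, 178 and 10 counts in control and 0, 29 and 0 counts in delipidated libraries, with a log2 fold change of -3.05 (SE 1.70, edgeR, unadjusted p = 0.0980, adjusted p = 1.00). Its unadjusted p was 0.0399 with DESeq2's Wald test, 0.0189 with no filter, 0.0147 with the replicate block and 0.437 without control replicate 2, where the estimate was -1.79. Leaving out delipidated replicate 2, the only library of its group with counts, set the controls against 0 counts. Such a comparison has no usable SE, so the unadjusted p of 0.00168 from that edgeR fit is given as a description only.

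Among regulators of the pathway 9 of 10 genes were tested, with a median log2 fold change of 0.044. Ppara, the nuclear receptor that induces beta-oxidation genes in liver, was low, with 7.43, 1.57 and 3.19 CPM in control and 6.17, 1.04 and 12.6 CPM in delipidated replicates 1, 2 and 3, and the groups overlapped. The most abundant were the corepressor Ncor1 with means of 551 ± 24.2 and 505 ± 111 CPM, the deacetylase Sirt1 with 330 ± 21.2 and 301 ± 66.3 CPM, and the transcription factor Nrf1 with 150 ± 27.2 and 158 ± 41.9 CPM (SD, n = 3). Esrra had at most 36 counts in a library, and 69.1% of its counts fell on a part that overlaps Trmt112 on the opposite strand.

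Other targets of PPAR alpha were sparse, with 3 of 10 tested and a median of -0.32 on the log2 scale. Plin2, which coats lipid droplets, had 38.9 ± 7.20 and 31.2 ± 13.2 CPM (SD, n = 3) in control and delipidated embryos. Ucp2, with 17.5% of its counts on an opposite-strand overlap, had 75, 214 and 82 counts in control and 163, 0 and 48 counts in delipidated libraries, and Angptl4 4, 11 and 13 against 97, 22 and 6 counts. Both pairs of groups overlapped.

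Of the genes of ketone body metabolism 4 of 5 were tested, with a median log2 fold change of -0.31. Bdh1 had 29.8 ± 7.33 and 32.3 ± 9.60 CPM, and Oxct1 12.2 ± 2.21 and 7.29 ± 7.65 CPM (SD, n = 3), with no Oxct1 count in delipidated replicate 1. The estimate for Oxct1 on the log2 scale was -0.75 (SE 1.14, edgeR, unadjusted p = 0.525), -0.16 without delipidated replicate 1, -1.88 without delipidated replicate 3, -2.09 with the part with most counts and -3.71 with limma-voom (unadjusted p = 0.0237, adjusted p = 0.989).

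Transcripts that mark other cells of the reproductive tract were also measured. The summed level of 7 stromal genes was 18.3, 18.8 and 28.9 CPM in control and 1.93, 3.50 and 4.09 CPM in delipidated replicates 1, 2 and 3. Its most abundant gene, Vim, had 152, 145 and 300 counts in control and 0 in each delipidated library. Vim held 12.8, 8.77 and 22.8 CPM of the control sums and passed the filter on low counts through the control libraries alone. Dcn went the other way, with 27 counts in delipidated replicate 3 and none in the other libraries. For 8 leukocyte genes the sum was 9.79, 11.5 and 11.3 CPM in control and 2.77, 3.87 and 8.47 CPM in delipidated libraries, with Csf1r the most abundant, 95.6% of whose counts fell on an overlap with Hmgxb3 on the opposite strand. Both sums were higher in all control than in all delipidated libraries. Among the leukocyte genes, Cd52 went the other way in its group means, with 0.795 CPM in control and 1.45 CPM in delipidated embryos. Stromal genes with counts numbered 5, 5 and 5 in control and 1, 1 and 3 in delipidated libraries, and leukocyte genes 6, 5 and 6 against 2, 3 and 6. The 11 cumulus and granulosa cell genes summed to 5.74, 10.3 and 66.7 CPM in control and 1.38, 9.58 and 11.9 CPM in delipidated libraries, where 653 counts of Cyp11a1 in control replicate 3 stood out, and Foxl2 and Ptx3 had 0 counts in all 6 libraries. Of these 11 genes, 5, 6 and 7 had counts in control and 2, 4 and 3 in delipidated libraries. For the 6 genes of oviduct epithelium the sums were 90.4, 249 and 123 CPM against 173, 204 and 113 CPM, with 4, 5 and 4 against 4, 5 and 6 genes counted, and most of it was Epcam, which is not restricted to that tissue. The part of these transcripts in the levels of the beta-oxidation genes was not tested.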

How the data were processed

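Per the labels, sequences were demultiplexed with bcl2fastq 2.20, trimmed with Trimmomatic 0.36, aligned to mm10 with STAR 2.5.2b and counted with featureCounts. The authors deposited raw counts per exonic part, 425461 parts for each of the 6 libraries, without normalization. Parts were summed per Ensembl gene. Of 33309 parts under joined identifiers of overlapping genes, 27968 overlapped the exons of a single gene and were added to it. Leaving out the rest removed 2.49% to 2.57% of each library. Symbols were found for 48676 of 48967 genes in GENCODE M21.

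Genes were filtered with filterByExpr (minimum count 10, minimum total count 15), normalized with TMM and compared with the quasi-likelihood test of edgeR 4.0.16 in R 4.3.3 without covariates. P-values were adjusted over 16020 genes. The biological coefficient of variation was 0.663. Standard errors were derived from the fitted coefficient and its F statistic. A comparison of 3 with 3 libraries was too small for an exact permutation test to reach 0.05. The methods were tested on simulated counts. Alternatives used DESeq2 1.42.0, limma 3.58.1, other filters, library sizes, replicate blocks and choices of exonic parts, and each library left out in turn. Tables were handled with Python 3.11.15.

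The members and lists were chosen with earlier results of these data known. Genes named are the 10 members, from each other list those called, the 3 most abundant and the 2 with the smallest p-values, from each marker list the most abundant, and the 5 that correlate best with the sum of the members. Some genes that this rule names are not reported here. Intervals from the fit include the spread between libraries, whereas limits for 0 counts cover counting error only, and reads were not collapsed by molecular identifiers.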

Additional observations from a re-analysis of the deposited data

How the results depend on the processing

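No member was called under any of the 16 alternatives, of which 15 gave a value for Acadvl and 14 for Hadh and Acaa2, whose counts were filtered out in the others. Calls over all genes were 0 in each direction under all alternatives except those with no filter on low counts beforehand. These were DESeq2's Wald test, with 9 higher and 40 lower, and edgeR, with 5 higher and 25 lower. Calls were 0 with any 1 library left out. Labels give both groups the replicate numbers 1 to 3, but same-numbered libraries did not deviate together (r = -0.084, 0.070 and 0.043). With the number as a replicate block the calls were 0 higher and 0 lower, 154 and 252 genes had an unadjusted p under 0.05, and log2 fold changes were 0.65 for Acadl and -2.71 for Acaa2. The log2 ratio of the summed members lay between -0.27 and -0.00087 with each library left out. Taking the part with most counts gave log2 fold changes of 0.0011 for Cpt1a, 0.30 for Acadl, 0.50 for Hadhb, 0.012 for Cpt1c, -0.26 for Acadsb, 0.73 for Echs1, 0.23 for Hsd17b4, -0.22 for Scp2 and -0.20 for Bdh1. Acadl was 2.55 with limma-voom, and Acadvl 0.78 without opposite-strand parts. With each library left out, the log2 fold change ranged from -0.65 to 0.25 for Slc25a20, -0.41 to 0.034 for Acadm, -0.64 to 0.77 for Acadl, -1.17 to 0.63 for Acadvl, -0.19 to 0.38 for Hadha, -0.63 to 0.047 for Hadhb, -1.38 to 0.31 for Hadh, -4.34 to 0.31 for Acaa2, -1.93 to 0.051 for Crat, -0.22 to 0.70 for Acacb, -0.38 to 0.046 for Echs1, -0.17 to 0.94 for Etfa, -0.67 to 0.0081 for Hsd17b4, -0.17 to 1.49 for Ppara, -0.16 to 0.21 for Nrf1, -0.24 to 0.046 for Ncor1 and -0.086 to 0.33 for Bdh1. The cause of these reversals was not tested. Levels per kilobase changed order with the part with most counts and its length.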
